A study of Mus musculus with 14 samples.

Results

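A set of 10 genes that mark reactive astrocytes, Gfap, Serpina3n, Vim, Lcn2, Cd44, Osmr, S1pr3, Timp1, Steap4 and Aspg, were followed in mouse white matter and in cultured neural cells. They were taken by symbol from the 46983 genes of each deposited table, and all 10 were present in both. Astrocytes answer injury, demyelination and inflammation with a change of state called reactivity: they thicken their filament skeleton, secrete protease inhibitors and acute-phase proteins, and display receptors for cytokines and matrix. Cytokines of the IL-6 family act on them through the shared receptor subunit gp130 and the transcription factor STAT3, and microglia, the macrophages of the brain, can induce the state with IL-1, TNF and complement C1q. Several of the genes are also active in other cells, such as Vim in vessels and progenitors, Cd44 in leukocytes and Lcn2 in neutrophils.

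RNA was sequenced from corpus callosum, the large white matter tract between the hemispheres, in 4 WT and 4 Qk-KO libraries, as labelled, and from differentiated neural stem cells in 3 libraries per genotype, all from an FvB/C57BL6 hybrid background. The tissue groups were Plp-CreERT2;QKLoxP/LoxP mice (Qk-KO) and Plp-CreERT2;QKLoxP/+ mice (WT). Both groups carried the inducible Cre and at least 1 floxed copy of Qk, the gene of the RNA-binding protein quaking, and both received tamoxifen at 8 weeks of age with collection 4 days later. The Plp promoter is active mainly in myelinating glia, so it is not a driver aimed at astrocytes. The cultures, at passages 7, 12 and 13, were grown with the thyroid hormone triiodothyronine at 50 ng/ml and insulin-like growth factor 1 at 100 ng/ml. Cultures labelled Qk-KO all have 40HT in their descriptions, and those labelled WT all have EtOH. Genotype and treatment cannot be told apart in culture, and the labels name no Cre driver for these cells. In culture, 1 WT and 1 Qk-KO library share each passage and the code in their descriptions, so the labels pair them across genotypes; the deposited fit could not be repeated with that pairing. In neither system do the labels say whether replicates came from separate animals. The p-values therefore measure the spread between these samples, which may be technical in part.

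The fitted counts of a library came to 15048646 to 27666519 in callosum, and to 38325833 to 48912999 in culture. Library columns hold a model's fitted means without replicate spread, so each level below is given per genotype in fitted CPM (a gene's part of the fitted counts of its genotype), and the replicate error is in the standard errors (SE) of the authors' deposited table. Changes are Qk-KO minus WT on the log2 scale, with adjusted p from the deposited DESeq2 Wald test, and a gene is said to rise or fall only at an adjusted p under 0.05. Total Qk RNA rose in the culture libraries labelled Qk-KO, from 1972 to 3277 fitted CPM (0.66 ± 0.14, adjusted p = 4.2e-05, authors' deposited table). In callosum it had 713 and 907 CPM and did not pass (0.32 ± 0.12, adjusted p = 0.162, authors' deposited table). Reads over the whole gene do not check the deletion. Astrocyte transcripts were abundant in the cultures labelled as differentiated oligodendrocytes. Per kb of exon, Gfap stood at 950 and Gja1, an astrocyte gap junction gene, at 235 fitted CPM in WT cultures, beside 62.0 for the myelin gene Mbp. In bulk samples, fewer cells of a type and less RNA per cell cannot be told apart.

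The promoters of Gfap, Steap4 and Osmr are shown because they hold the matches to the STAT and AP-1 motifs among the members; the values of these genes follow. The sequences are from RefSeq on GRCm38.p6 and run from 250 bases before to 50 bases after the RefSeq gene start, and promoters of all 10 members were matched by symbol. The Gfap window lies on the minus strand at chr11:102897151-102897450, Steap4 on the plus strand at chr5:7960222-7960521 and Osmr on the minus strand at chr15:6874264-6874563. The GENCODE gene bounds given below run to the outermost transcript, so the RefSeq start lies 3712 bases inside the gene for Gfap, 656 for Osmr and 15 for Steap4. Capitals mark TTCNNNGAA (a STAT motif), TGANTCA (an AP-1 motif) and TATAAA, searched on both strands.
Gfap: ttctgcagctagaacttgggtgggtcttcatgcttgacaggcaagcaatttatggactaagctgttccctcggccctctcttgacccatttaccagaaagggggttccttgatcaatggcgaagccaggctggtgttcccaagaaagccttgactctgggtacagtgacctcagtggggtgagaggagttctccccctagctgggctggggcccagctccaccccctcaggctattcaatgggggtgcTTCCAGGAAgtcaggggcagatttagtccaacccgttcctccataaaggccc
Steap4: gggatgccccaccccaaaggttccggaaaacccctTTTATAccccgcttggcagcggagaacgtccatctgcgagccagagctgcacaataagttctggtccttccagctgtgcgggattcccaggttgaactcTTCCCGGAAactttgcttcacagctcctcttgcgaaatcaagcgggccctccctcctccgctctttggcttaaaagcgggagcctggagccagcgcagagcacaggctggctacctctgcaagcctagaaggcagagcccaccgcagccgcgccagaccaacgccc
Osmr: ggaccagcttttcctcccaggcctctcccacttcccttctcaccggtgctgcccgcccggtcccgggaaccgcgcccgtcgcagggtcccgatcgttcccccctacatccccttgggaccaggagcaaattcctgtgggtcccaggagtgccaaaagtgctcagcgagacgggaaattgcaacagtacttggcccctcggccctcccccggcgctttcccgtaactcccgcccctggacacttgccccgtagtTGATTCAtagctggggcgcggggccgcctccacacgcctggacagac
The STAT motif was in 2 of the 10 member promoters, Gfap, where it spans the start, and Steap4, and in 8.33% of 32544 promoters of the same length. The AP-1 motif was in 1, Osmr, and in 7.79% of all. TATAAA was in 2, Vim and, on the other strand, Steap4 (capitals TTTATA), and in 13.6% of all. A loose NF-kB pattern was in all 10 and in 51.0% of all promoters, and its matches are not in capitals. These matches describe letters in a short window and no binding was measured.

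In the corpus callosum, reactive astrocyte genes were higher in libraries labelled Qk-KO. Of the 10 members, 9 carried an adjusted p; 6 of these rose and none fell, and none was lower at an unadjusted p under 0.05. Of all 19935 tested genes, 2.09% rose and 0.231% fell, 2.32% in either direction. At an unadjusted p under 0.05, 1010 of the 19935 were higher and 600 lower. Gfap, Serpina3n, Aspg, Osmr, Cd44 and S1pr3 rose, by 0.77 to 2.38 log2 units. Vim, Timp1 and Steap4 did not pass, and Lcn2 was too low for an adjusted p. The median change over the 9 tested members was 1.24, beside -0.01 over all tested genes.

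Gfap (ENSMUSG00000020932.14, chromosome 11, 102887336 to 102900912, minus strand, GRCm38), the main intermediate filament of astrocytes, had 228 fitted CPM in WT and 965 in Qk-KO. It rose 4.16-fold (2.06 ± 0.19, n = 4 per genotype, adjusted p = 2.3e-24, authors' deposited table), and ranked 13 of the 19935 tested genes by score, the change divided by its SE. Vim, the vimentin gene of immature and reactive astrocytes that is also active in vessels and progenitors, had 41.6 CPM in WT and 88.1 in Qk-KO. Its change of 1.06 ± 0.36 (adjusted p = 0.125, authors' deposited table) did not pass, with a 95% interval from 0.34 to 1.77. The SE of Vim was 3.24 times the median of the 500 genes nearest to it in mean count. That interval holds the changes of Cd44 and Osmr.

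Serpina3n (chromosome 12, 104406729 to 104414329, plus strand), a secreted acute-phase inhibitor of serine proteases, had 13.1 CPM in WT and 69.4 in Qk-KO. It rose 5.20-fold (2.38 ± 0.14, adjusted p = 1.3e-56, authors' deposited table), rank 2 of the 19935 tested genes by score. Timp1 (chromosome X, 20870166 to 20874735, plus strand), an inhibitor of matrix metalloproteinases, stood at 1.20 and 2.08 CPM, a change of 0.77 ± 0.37 that did not pass (adjusted p = 0.525, 95% interval 0.06 to 1.49, authors' deposited table). Lcn2, a secreted lipocalin that binds iron carriers of bacteria, had a mean normalized count of 6.49, below the lowest tested mean of 8.08. Its fitted levels were 0.185 and 0.427 CPM, and its change was 1.18 ± 0.50 in the authors' deposited table. With all genes kept regardless of mean, its adjusted p was 0.564.

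On GRCm38, Vim lies on chromosome 2 (13573927 to 13582826, plus strand), as do Lcn2 (32384633 to 32388252, minus) and Cd44 (102811141 to 102901665, minus). S1pr3 lies on chromosome 13 (51408639 to 51422797, plus), Steap4 on chromosome 5 (7960457 to 7982213, plus) and Aspg on chromosome 12 (112106679 to 112127559, plus). Among the receptors and enzymes, Osmr (chromosome 15, 6813577 to 6874969, minus strand), the receptor subunit for oncostatin M, had 5.00 CPM in WT and 12.0 in Qk-KO. It rose 2.36-fold (1.24 ± 0.21, adjusted p = 4.1e-07, authors' deposited table). Cd44, a receptor for hyaluronan and osteopontin, went from 3.46 to 8.62 CPM and rose by 1.30 ± 0.25 (adjusted p = 3.1e-05, authors' deposited table). S1pr3, a receptor for sphingosine 1-phosphate, had 6.65 and 11.5 CPM, the smallest of the 6 rises at 0.77 ± 0.18 (adjusted p = 0.00203, authors' deposited table). Aspg, which encodes an asparaginase, had 2.54 and 7.99 CPM and rose 3.09-fold (1.63 ± 0.22, adjusted p = 6.3e-11, authors' deposited table). Steap4, a metalloreductase of iron and copper, was the one member with a negative value, at 1.08 and 0.823 CPM and -0.42 ± 0.45 (adjusted p = 1.00, 95% interval -1.30 to 0.47, authors' deposited table).

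Few general astrocyte markers changed in callosum. Of 20 markers that are not members, 1 rose and 1 fell, with a median of 0.03. Aqp4, the water channel of astrocyte endfeet, rose by 0.69 ± 0.18 and Ndrg2 fell by 0.28 ± 0.09, while the glutamate transporter gene Slc1a2 had 0.10 ± 0.16, in the authors' deposited table. Ndrg2 (adjusted p = 0.0496) did not pass with equal library totals or with no filter on the mean (adjusted p = 0.0989 and 0.0802), which leaves 0 of the 20 lower. The summed level of the list was 7537 CPM in WT and 7952 in Qk-KO, and all 20 had reads. Centring the changes on the astrocyte median left 6 members higher and none lower. Of all 19935 tested genes, 1.88% were then higher and 0.326% lower. Microglia markers moved with the members. Of 14, 11 rose and none fell, and their sum was 496 CPM in WT and 1131 in Qk-KO. P2ry12 and Tmem119, markers of resting microglia, had 0.18 ± 0.13 and 0.10 ± 0.15 in the authors' deposited table. The part of microglial RNA in the changes of Cd44, Osmr and the other members was not tested. Sums of endothelial and mural markers (358 and 336 CPM) and of neutrophil and monocyte markers (5.04 and 5.46 CPM, Elane without reads) gave no call in 12 and 3 tested genes. Ependymal and choroid plexus markers summed to 1968 and 1149 CPM without a call in 5 tested genes. Oligodendrocyte markers rose in 4 of 12 cases, with sums of 7510 and 8056 CPM. Markers of oligodendrocyte precursors, neural stem cells, neurons and fibroblasts gave no call, with sums of 361 and 442, 128 and 130, 7019 and 6493, and 153 and 165 CPM. When the score was read against a heavier-tailed distribution with libraries minus 2 degrees of freedom, Serpina3n alone of the members passed. Under this reference 8 of the 19935 tested genes passed (0.0401%), all of them higher.

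**Figure D1:**
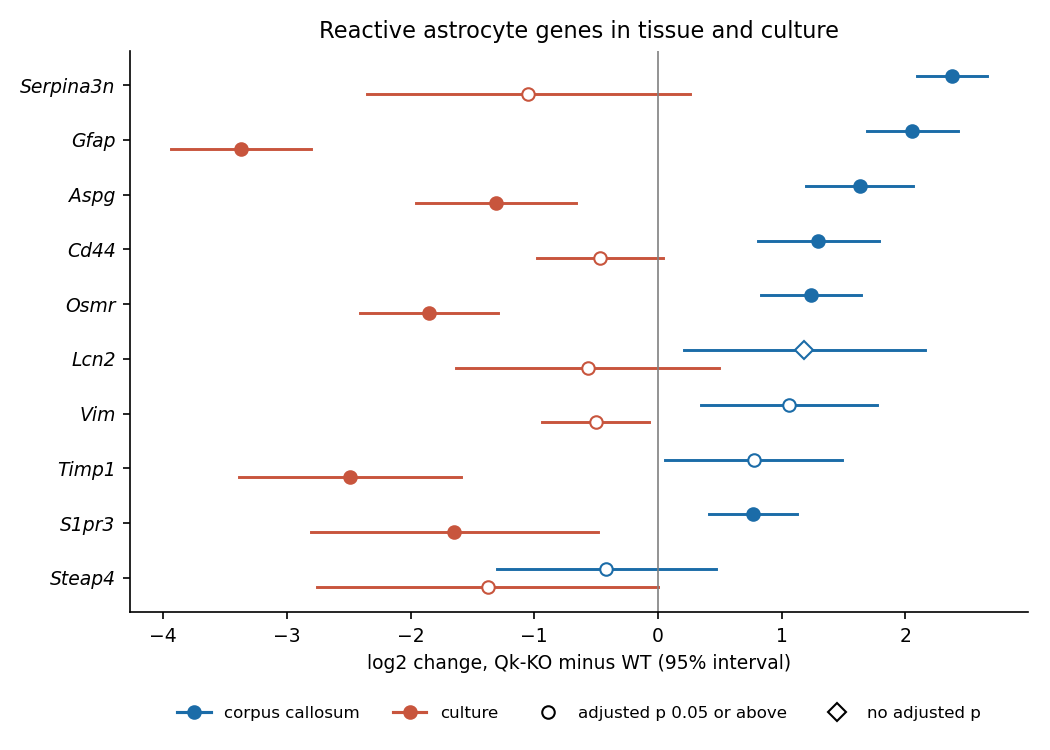
Log2 change (Qk-KO minus WT, horizontal axis) of the 10 members in corpus callosum (blue, 4 libraries per genotype) and culture (red, 3 per genotype), with bars for the 95% interval from the deposited SE, filled points for an adjusted p under 0.05 and a diamond for the gene without an adjusted p. In callosum 9 of 10 points lie above 0, and in culture all 10 lie below 0.

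In culture, reactive astrocyte genes were lower in libraries labelled Qk-KO. Of the 10 members, all tested, 5 fell and none rose, and none was higher at an unadjusted p under 0.05. Of all 17503 tested genes, 15.2% fell and 13.3% rose, 28.6% in either direction. At an unadjusted p under 0.05, 3342 of the 17503 were lower and 3206 higher. Gfap, Timp1, Osmr, S1pr3 and Aspg fell, by 1.31 to 3.37 log2 units. Vim, Serpina3n, Lcn2, Cd44 and Steap4 had negative values that did not pass. The median over the 10 was -1.34, beside 0.01 over all tested genes.

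Gfap had 4008 fitted CPM in WT cultures and 408 in Qk-KO. It fell by 3.37 ± 0.29 log2 units, 10.4-fold (n = 3 per genotype, adjusted p = 2.4e-29, authors' deposited table), and ranked 59 of the 17503 tested genes from the lowest score. Vim, at 835 and 622 CPM, had -0.50 ± 0.22 and did not pass (adjusted p = 0.0731, 95% interval -0.94 to -0.07, authors' deposited table). The fitted levels per kb of exon changed order, from 950 for Gfap and 176 for Vim in WT to 96.8 and 131 in Qk-KO. No spread is attached to these levels, so the order was not tested.

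Among the secreted proteins, Timp1 had 5.28 CPM in WT and 0.993 in Qk-KO and fell by 2.49 ± 0.46 (adjusted p = 8.6e-07, authors' deposited table). Timp1 lies in a region covered by Syn1, a synaptic gene on the opposite strand, but no exon base is shared in the annotation. Serpina3n, at 166 and 84.7 CPM, had -1.05 ± 0.67 and did not pass (adjusted p = 0.253, 95% interval -2.36 to 0.26, authors' deposited table). Its SE was 4.61 times the median of genes of like mean, the highest ratio of the 10 members in culture. Lcn2, at 1.02 and 0.723 CPM, had -0.57 ± 0.54 (adjusted p = 0.486, authors' deposited table).

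Osmr had 39.0 CPM in WT and 11.4 in Qk-KO and fell by 1.85 ± 0.29 (adjusted p = 2.3e-09, authors' deposited table). S1pr3, at 40.8 and 13.7 CPM, fell by 1.65 ± 0.59 (adjusted p = 0.0226, authors' deposited table), with an SE 3.77 times the median of genes of like mean. In the annotation, 45 exon bases of S1pr3, 1.01% of its exon length, are shared with Gm32834 on the opposite strand. Cd44, at 31.1 and 23.6 CPM, had -0.47 ± 0.26 (adjusted p = 0.172, 95% interval -0.98 to 0.04, authors' deposited table). Aspg went from 9.30 to 3.96 CPM and fell by 1.31 ± 0.33 (adjusted p = 5.7e-04, authors' deposited table). Steap4, at 4.89 and 1.99 CPM, had -1.38 ± 0.70 (adjusted p = 0.135, 95% interval -2.76 to 0.00, authors' deposited table).

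Astrocyte markers moved with the members in culture. Of 20 markers that are not members, 15 fell and none rose, with a median of -1.23, and their sum was 14808 CPM in WT and 6434 in Qk-KO. Mlc1, Gja1 and Acsbg1 fell, with changes of -2.56 ± 0.13, -2.23 ± 0.15 and -2.31 ± 0.22, while Glul had -0.48 ± 0.26, in the authors' deposited table. Relative to that median, 3 members were lower (Gfap by 2.15, Timp1 by 1.26 and Osmr by 0.62) and 2 were higher (Vim by 0.73 and Cd44 by 0.75), while S1pr3 and Aspg no longer passed. That centring put 81.1% of the 17503 tested genes higher and 1.55% lower, so nothing particular to Vim or Cd44 is read from their calls. Microglia markers were low in culture. Of 14, 6 had no reads, among them C1qa, C1qb, C1qc and Trem2, and the sum was 20.8 and 12.4 CPM. Neuron markers rose in 6 of 8 tested cases (744 and 1751 CPM in sum), neural stem cell markers rose in 3 and fell in 1 of 8 (792 and 1274 CPM), and oligodendrocyte markers rose in 2 and fell in 2 of 12 (3028 and 2379 CPM; with no filter on the mean, 0 and 1). Precursor markers rose in 2 and fell in 2 of 8 (2315 and 2465 CPM). Over all genes tested in culture, 13.3% rose and 15.2% fell. Endothelial and mural, fibroblast, and neutrophil and monocyte markers summed to at most 12.8, 2.47 and 0.669 CPM. The part of cell makeup in the changes of the members was not tested. With the heavier-tailed reference, 0 of the 17503 genes passed in culture at an adjusted p under 0.05, where the normal reference gave 2336 higher and 2667 lower.

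**Figure D2:**
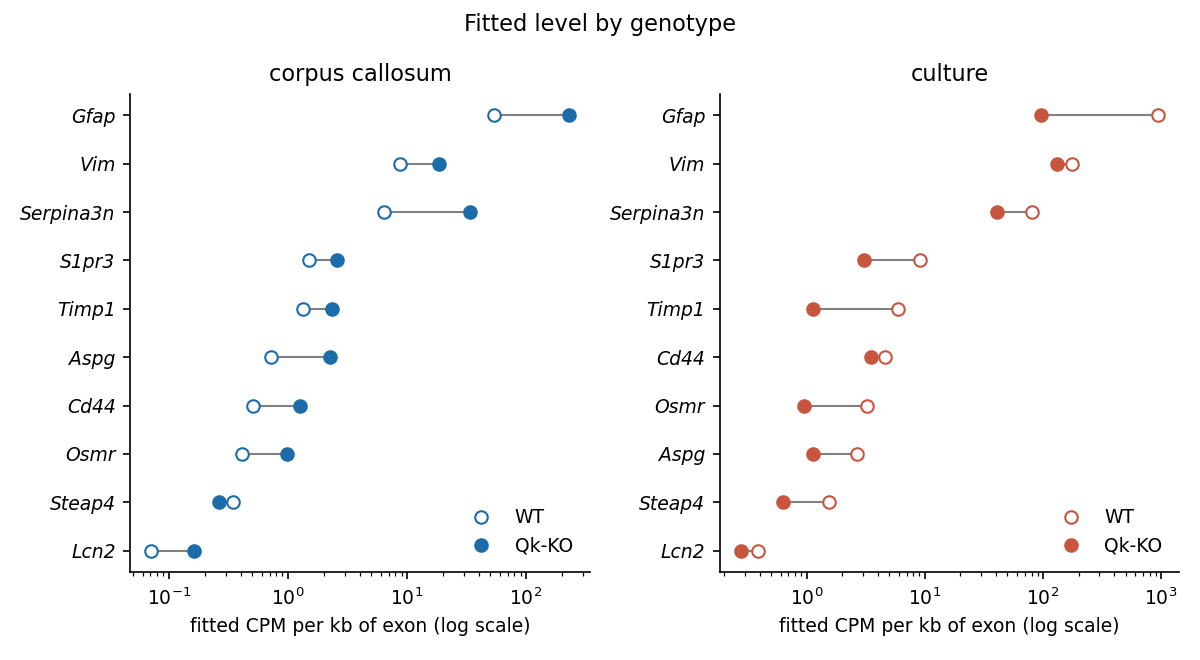
Fitted level of each member in CPM per kb of exon (log scale, horizontal axis) in WT (open) and Qk-KO (filled), corpus callosum on the left and culture on the right, ordered by the WT level; the points carry no error because the columns hold fitted means. Gfap rises from 54.2 to 229 in callosum and falls from 950 to 96.8 in culture, where Vim at 131 then stands above it.

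In WT callosum Gfap led with 54.2 fitted CPM per kb, followed by Vim with 8.78 and Serpina3n with 6.36, and the other 7 stood between 0.0707 for Lcn2 and 1.49 for S1pr3. In libraries labelled Qk-KO, Serpina3n at 33.6 stood above Vim at 18.6. In WT culture Gfap, Vim and Serpina3n again came first, with 950, 176 and 80.4 CPM per kb, and Lcn2 was last with 0.387. The tables were normalized separately, so levels are not compared between them, and neighbours in each order were not tested.

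The change differed between tissue and culture for 8 of the 9 members tested in both, always with the higher value in callosum. Of 16601 genes tested in both tables, 21.5% differed and 11.7% differed in that direction (z test on the deposited changes and SEs, Benjamini-Hochberg adjusted). Among these members the gap was widest for Gfap, 5.43 ± 0.34 log2 units (adjusted p = 2.3e-52), rank 5 of the 16601 genes by p. Serpina3n, Timp1, Osmr, Aspg and S1pr3 differed by 3.43 ± 0.68, 3.26 ± 0.59, 3.09 ± 0.35, 2.94 ± 0.40 and 2.42 ± 0.62. The gaps of Cd44 and Vim were 1.77 ± 0.36 and 1.56 ± 0.43; neither passed the test in culture alone. Steap4, with 0.96 ± 0.84 (adjusted p = 0.477, 95% interval -0.68 to 2.60), did not pass.

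Gfap, Osmr, Aspg and S1pr3 both rose in callosum and fell in culture. This is 4 of the 9 members tested in both, where 0.506% of the 16601 genes did so. Of the genes called higher in callosum and tested in both, 84 of 296 (28.4%) fell in culture, against 4 of the 6 such members. Relative to the astrocyte marker median of each system, 5 of the 9 differed, all with the higher value in callosum. Under that centring 78.8% of the 16601 genes differed, 1.49% with the higher value in callosum and 77.3% with the lower. The gaps of Vim, Cd44 and S1pr3 no longer passed (0.30, 0.51 and 1.16, with adjusted p of 0.506, 0.180 and 0.0757).

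**Figure D3:**
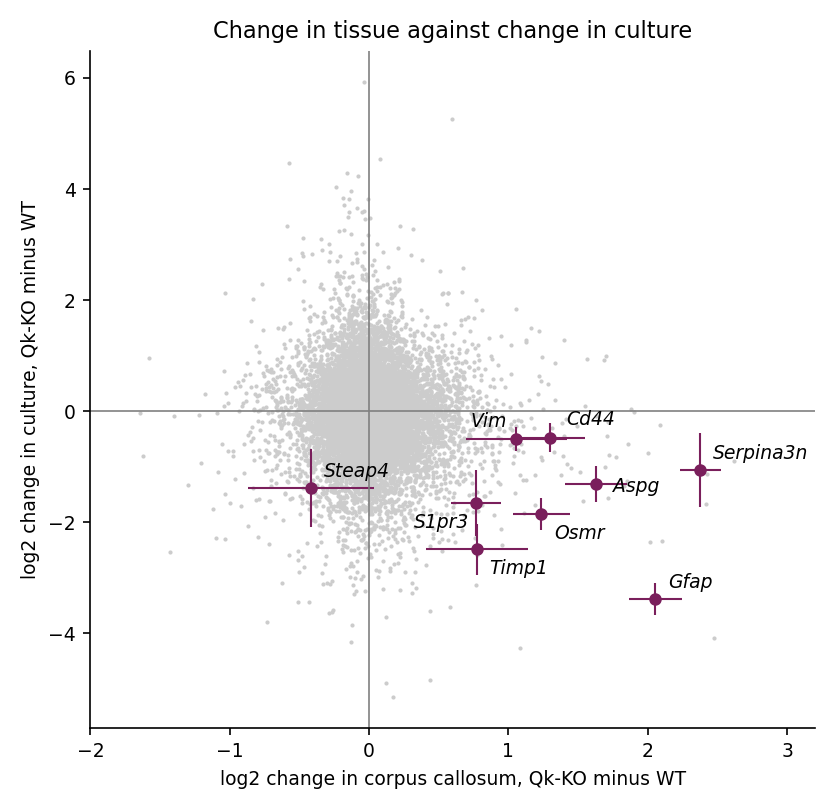
Log2 change in corpus callosum (horizontal axis) against log2 change in culture (vertical axis), both Qk-KO minus WT, for the 16601 genes tested in both tables (grey) and 9 members (purple, bars are 1 SE). Of the members, 8 lie right of 0 and below 0, and Steap4 lies left of 0 and below 0.

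For the list counts that follow, 2.09% of all tested genes rose and 0.231% fell in callosum. In culture these shares were 13.3% and 15.2%. At an unadjusted p under 0.05, 1010 of the 19935 genes tested in callosum were higher and 600 lower. Beside the members, the pan-reactive set holds Hspb1, Cxcl10 and Cp. None was called in callosum by DESeq2, with 0 at an unadjusted p under 0.05, and there Cp, the ferroxidase ceruloplasmin, had -0.23 ± 0.22 in the authors' deposited table. In culture the heat shock gene Hspb1 fell by 1.52 ± 0.42 per the authors' deposited table, while Cp had 0.55 ± 0.29 there and did not pass (adjusted p = 0.146). Of 12 genes of the neurotoxic type of reactivity, 1 of 11 tested rose in callosum (median 0.27). This was Ggta1, a galactosyltransferase gene (1.15 ± 0.18), and the glucocorticoid-induced Fkbp5 had -0.18 ± 0.15 in the authors' deposited table. In culture 3 of 10 tested fell (median -0.34), namely Gbp2, an interferon-induced GTPase (-1.44 ± 0.25), the proteoglycan gene Srgn (-1.70 ± 0.39) and Fbln5 (-1.04 ± 0.40), and the class I histocompatibility gene H2-D1 had -0.22 ± 0.20 in the authors' deposited table. Fbln5 (adjusted p = 0.0352) did not pass with equal library totals or with no filter on the mean (adjusted p = 0.0516 and 0.0565).

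Of 12 genes of the trophic type, 2 of 11 tested rose in callosum (median 0.48) and 5 of 11 fell in culture (median -1.10). Tgm1, a transglutaminase, had 0.229 CPM in WT callosum and 1.29 in Qk-KO and rose by 2.47 ± 0.48, but fell by 4.08 ± 0.40 in culture, from 6.80 to 0.424 CPM, in the authors' deposited table. Cd14, a coreceptor for endotoxin that is abundant in myeloid cells, rose by 1.83 ± 0.25 in callosum and fell by 1.35 ± 0.39 in culture in the authors' deposited table. Both differed between the systems (Tgm1 by 6.56 ± 0.62 and Cd14 by 3.18 ± 0.47; singled out after their values were seen). S100a10 fell by 0.98 ± 0.25 in culture, while Ptgs2 had -0.26 ± 0.23 in callosum and Cd109 had -1.10 ± 0.53 in culture without passing in the authors' deposited table.

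In the IL-6 family and STAT3 pathway, 2 of 17 tested genes rose in callosum (median 0.17). Stat3 rose by 0.45 ± 0.13, from 53.1 to 73.7 CPM (adjusted p = 0.0243), and its feedback inhibitor Socs3 by 0.71 ± 0.22, from 2.44 to 4.06 CPM (adjusted p = 0.0475), in the authors' deposited table. Both values lay near the threshold. Centred on astrocyte markers, the changes were 0.42 and 0.68 and did not pass (adjusted p = 0.0502 and 0.0707), and Socs3 also did not pass with no filter on the mean (adjusted p = 0.0769). The abundant kinase gene Jak1 had -0.03 ± 0.10 in the authors' deposited table. The ligand gene Osm, at a mean normalized count of 4.84, had no adjusted p in callosum, with 0.90 ± 0.52 in the authors' deposited table. In culture 6 of 18 fell and none rose (median -0.46), among them the ligand gene Cntf (-1.30 ± 0.24) and the receptor genes Cntfr (-1.11 ± 0.21) and Il6ra (-2.24 ± 0.41), while Stat3 had -0.19 ± 0.15 in the authors' deposited table. Il6st, which encodes gp130, the partner of Osmr, was also among the 6 and fell by 0.77 ± 0.18 in the authors' deposited table.

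Inducers of reactivity and NF-kB genes rose in 4 of 10 tested cases in callosum (median 0.63). The complement genes C1qa, C1qb and C1qc rose by 1.54 ± 0.23, 1.46 ± 0.22 and 1.58 ± 0.21, and Nfkb1 had 0.15 ± 0.11 in the authors' deposited table. These C1q genes are also among the 11 of 14 microglia markers that rose. The fourth was the TNF receptor gene Tnfrsf1a (0.83 ± 0.19), named after its value was seen, in the authors' deposited table. The ligand genes Il1b and Tnf, with mean normalized counts of 6.91 and 3.06, had no adjusted p. In culture, where the C1q genes and Tnf had no reads, 1 of 6 tested genes rose and 2 fell (median -0.11). Nfkbia rose by 0.51 ± 0.17, Tnfrsf1a and Nfkb2 had -1.53 ± 0.20 and -0.91 ± 0.22 and fell, and Nfkb1 had 0.09 ± 0.16, in the authors' deposited table.

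Partners of the members, such as their ligands, receptors and family members, rose in 3 of 23 tested cases in callosum (median 0.06). Spp1, the osteopontin ligand of Cd44, rose by 1.50 ± 0.23, the oligodendrocyte receptor gene S1pr5 by 0.93 ± 0.14 and Cd63, a binding partner of Timp1, by 0.62 ± 0.15 in the authors' deposited table. Slc22a17, described as a receptor for Lcn2, had -0.03 ± 0.10 in callosum and 0.06 ± 0.19 in culture in the authors' deposited table. In culture 2 of 21 rose and 6 fell (median -0.30), where 13.3% of all tested genes rose and 15.2% fell. The receptor gene S1pr1, Cd63 and the metalloproteinase gene Mmp14 fell, with changes of -1.41 ± 0.22, -1.27 ± 0.16 and -1.24 ± 0.17, in the authors' deposited table.

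**Figure D4:**
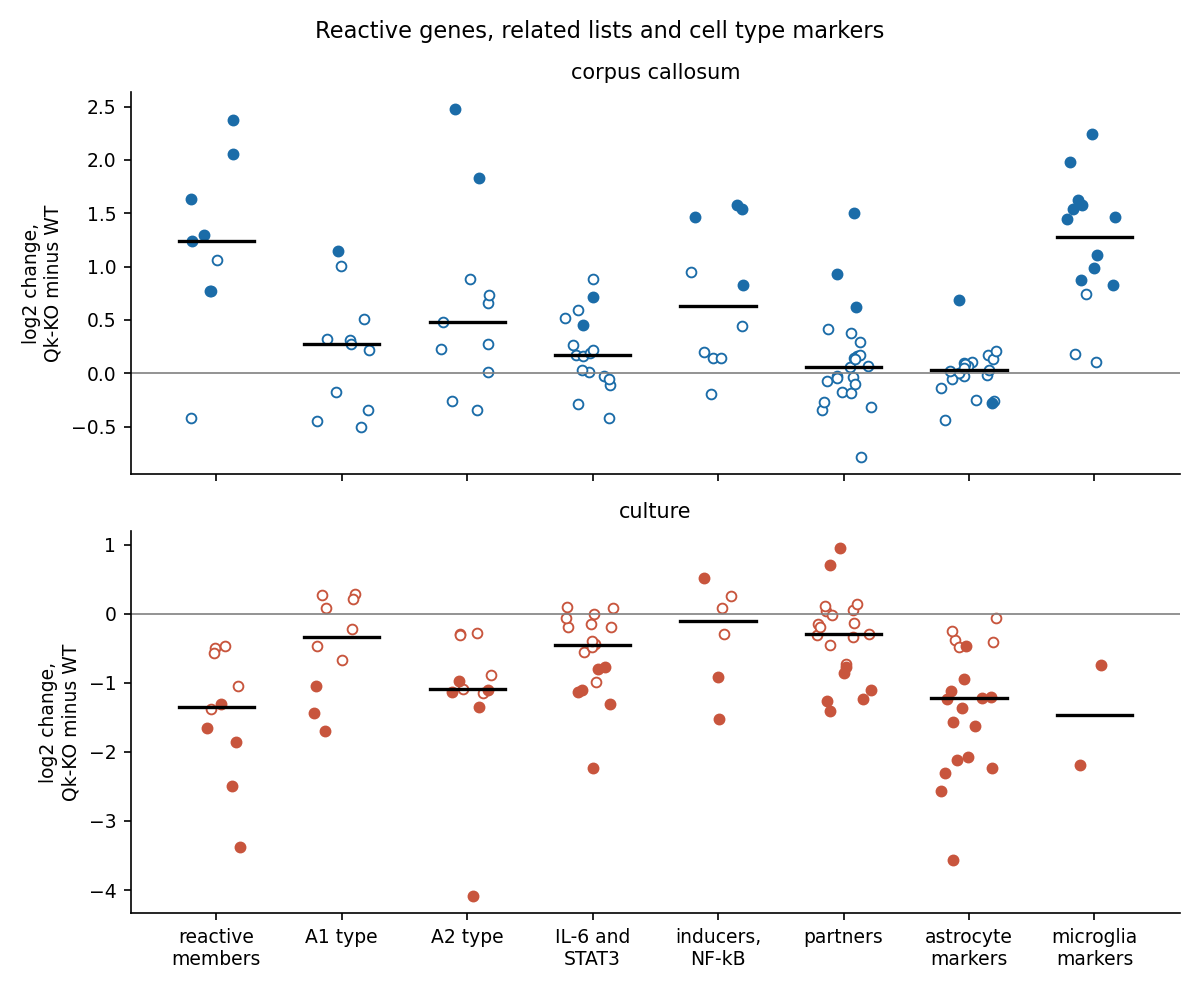
Log2 change (Qk-KO minus WT, vertical axis) of the tested genes of each list in corpus callosum (top) and culture (bottom); filled points passed an adjusted p of 0.05, black lines are medians, and A1 and A2 stand for the neurotoxic and trophic types. Medians of the members are 1.24 and -1.34, beside 0.03 and -1.23 for astrocyte markers.

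The precision of the members differed between the systems. In callosum the SE was 1.02 to 3.24 times the median of genes of like mean (median ratio 1.19 over 9 members), with Vim highest and Gfap next at 1.58. In culture the ratio ran from 1.30 to 4.61 (median 1.72 over 10 members), with Serpina3n, S1pr3 and Steap4 at 4.61, 3.77 and 2.72. These 3 genes in culture, and Vim in callosum, lie above the main cloud of genes, as the plot of SE against mean count shows. No library can be left out of the deposited fits, so which library widens these errors is not known.

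**Figure D5:**
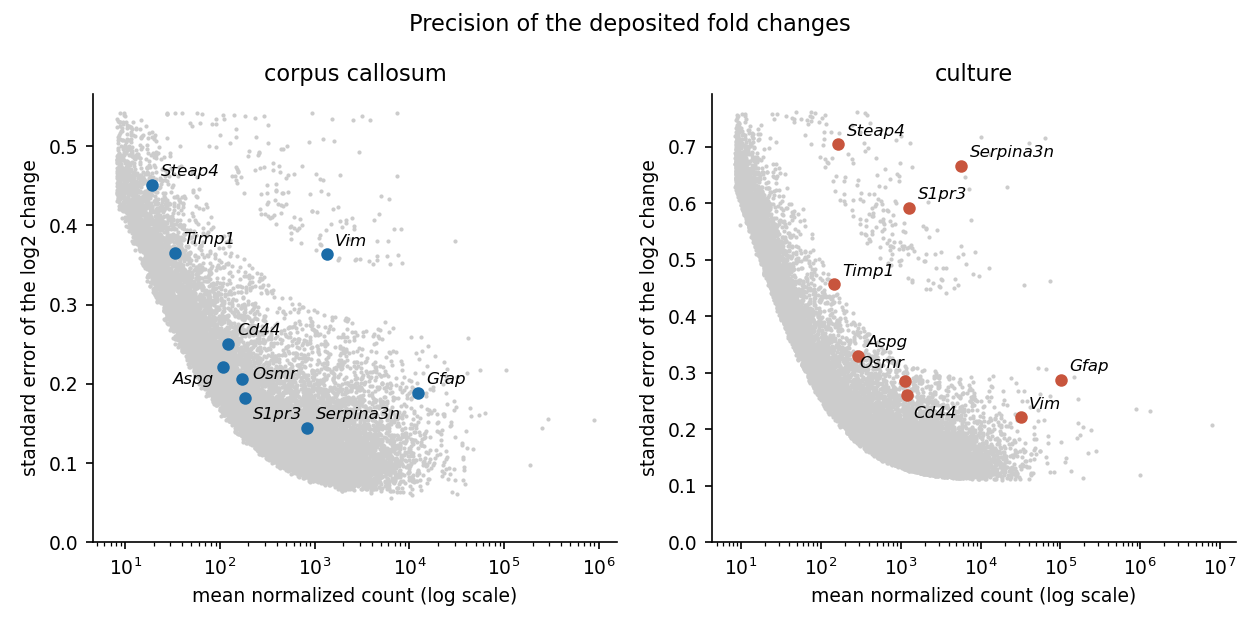
SE of the deposited log2 change (vertical axis) against mean normalized count (log scale, horizontal axis) for the 16601 genes tested in both tables (grey) and 9 members (coloured), corpus callosum on the left and culture on the right. Vim in callosum (0.36) and Serpina3n, S1pr3 and Steap4 in culture (0.67, 0.59 and 0.70) stand above the main cloud.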

How the data were processed

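RNA-seq tables of 2 systems were used, and FastQC, TopHat2 2.0.14, featureCounts and DESeq2 on mm10 are named in the submitters' processing notes; the sources used here do not give settings, annotation or strand. The library columns the authors deposited hold, from their values, log2 of a fitted count plus 1, and the deposited mean is, per the file headers, a normalized signal (counts over size factors). The authors also deposited a log2 fold change with SE, its ratio as a score, and a p-value with its adjusted value. Within a genotype the library columns differ by 1 constant factor, checked within 1e-06 on the log2 scale, so they are fitted means and no replicate test was possible from them. The direction was turned to Qk-KO minus WT. Deposited fold changes look shrunken toward 0, and this would understate low genes.

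Fitted CPM, exon lengths (GENCODE M21, GRCm38), 95% normal intervals, the z test of the difference between systems and Benjamini-Hochberg adjustment over all tested genes were computed with Python 3.11.15, numpy 2.4.6, pandas 2.3.3, scipy 1.17.1 and matplotlib 3.10.9. The z test was tried on values simulated as normal with the deposited SEs. Such values cannot check the effect of shrinkage, few libraries or pairing on the test. Members and lists were chosen with earlier results of these data known. Genes named are the members and, per list and system, up to 3 called genes with the smallest p and the uncalled gene with the highest mean; others named were chosen after their values were seen. Alternatives were equal library totals, centring on astrocyte markers, other mean filters, a Student reference and a threshold of 0.01.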

Additional observations from a re-analysis of the deposited data

Results flagged for a closer look

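The change under the same contrast differed between tissue and culture, by the z test on the deposited changes, for 8 of the 9 members tested in both. It also differed for 2 related genes singled out after their values were seen. Of all 16601 genes tested in both, 21.5% differed, and 11.7% differed with the higher value in callosum. The callosum change minus the culture change was 5.43 for Gfap, 3.43 for Serpina3n, 1.56 for Vim, 1.77 for Cd44, 3.09 for Osmr, 2.42 for S1pr3, 3.26 for Timp1 and 2.94 for Aspg, in log2 units. It was 6.56 for Tgm1 and 3.18 for Cd14. The callosum value was the higher one in all 10. The systems also differ in library number and treatment (tamoxifen, or 40HT and EtOH), which cannot be told apart from tissue against culture.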

How the results depend on the processing

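No paired analysis was possible because the library columns hold fitted means with genotype as the only term, and for the same reason no replicate could be left out; neither planned fit was run. The main counts were 6 members higher in callosum, 5 lower in culture and 8 differing between systems. They stayed within 1.5 times under equal library totals and the mean filters and threshold run for each. At 0.01, 6 members were higher in callosum and 4 lower in culture, without a share of all genes at that threshold beside them. Of all tested genes, equal library totals and the mean filters put 1.18% to 2.7% higher in callosum and 8.65% to 19.1% lower in culture. With equal library totals and a mean of at least 50, 22.6% and 27.3% of genes differed between systems. A Student reference left 1 member higher in callosum and 0 lower in culture, where 8 of 19935 and 0 of 17503 genes passed. The difference between systems was not run with that reference. Centring on astrocyte markers gave 2 members higher and 3 lower in culture and 5 differing between systems. Under that centring, which adds 1.23 to every culture change, 10 named genes of culture that passed before or after it changed sign. Their values became 0.75 for Cd44, 0.73 for Vim, 0.12 for Cntfr, 0.19 for Fbln5 and 1.01 for H2-D1. The others became 0.94 for Lmna, 0.32 for Nfkb2, 0.12 for Plec, 0.25 for S100a10 and 1.03 for Stat3. Among members that passed in neither setting, Serpina3n and Lcn2 (-1.05 and -0.57 before centring) also turned positive and are not among the 10. The counts over all genes moved with the centring too, to 14203 higher and 272 lower in culture, beside 2336 and 2667. Equal library totals shifted the culture median by 0.08 and turned the culture split to 3054 higher and 2296 lower. Low counts limit Lcn2, Osm and Tnf in callosum.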

Other observations

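Of 10 other genes of filaments and their linkers in glia, progenitors and neurons, none passed in callosum (DESeq2), with 1 higher and 2 lower at an unadjusted p under 0.05. Of all 19935 genes tested there, 2.32% passed, and 1010 were higher and 600 lower at that unadjusted p. The neurofilament gene Nefl had -0.34 ± 0.15 in the authors' deposited table. In culture 3 of 9 tested genes rose and 2 fell, where 13.3% of all tested genes rose and 15.2% fell. The neuronal filament genes Ina and Nefh rose by 2.70 ± 0.22 and 2.84 ± 0.35 and the progenitor filament gene Nes by 0.61 ± 0.14, while the linker gene Plec fell, with a change of -1.11 ± 0.26, in the authors' deposited table. Synm also fell, at 5.61 fitted CPM in WT and 2.95 in Qk-KO. Lmna had -0.29 ± 0.26 in the authors' deposited table.

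The copies of Serpina3n in its cluster had few reads. Of 10 copies, 1 was tested in callosum and 2 in culture. Serpina3g had 0.76 ± 0.53 in callosum (adjusted p = 0.906) and fell by 3.13 ± 0.74 in culture, and Serpina3m had -0.90 ± 0.69 in culture, in the authors' deposited table. Summed over the 10 copies, fitted levels were 0.536 and 0.865 CPM in callosum and 3.50 and 1.78 in culture, beside 13.1 and 69.4, and 166 and 84.7, for Serpina3n. The copies are close in sequence, so values are uncertain where the counting split reads between them.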
